A study of Mus musculus with 24 samples.

Results

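The gastrocnemius (GAS) of young treadmill-trained mice (YE) was compared with the GAS of young control mice (YC), over all 18795 genes measured. The samples were those titled as GAS of young exercise (replicates 1, 2 and 4) and GAS of young control (replicates 1, 2 and 3), that is 6 of the 24 libraries of the series. Mice of both groups were male C57BL/6 labelled as 9 weeks old, each group held 3 mice, and YE mice ran for 4 weeks, in 2 daily sessions on an incline at a speed that increased each week. YC mice had no treadmill intervention according to the labels. The other libraries came from the soleus (SOL) of the same groups and from SOL and GAS of exercised (OE) and control (OC) mice labelled as 84 weeks old. The time between the last run and dissection and the hour of dissection are not given in the sources used here.

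The gastrocnemius is a large calf muscle made mostly of fast-twitch fibres, with slower, more oxidative fibres in its deep part. Repeated running is known to increase mitochondria and the capacity to burn fatty acids in such muscle, through regulators such as PGC-1alpha and the p38 MAP kinases, and it can shift fast fibres toward more oxidative types. Muscle also has its own circadian clock, a loop in which BMAL1 and CLOCK switch on the genes of their own repressors, and this clock responds to the timing of activity. All of this is background to the comparison and not a result of it.

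Each value is an FPKM (fragments scaled to the length of the transcript and to the mapped fragments of the library), which sets genes on a scale per length. No value is a read count, and with depth unknown the counting error cannot be given. Between 15217 and 15419 genes were above 0 FPKM in the 6 libraries. The fast-fibre markers were at very high levels in both groups, as for Myh4, the myosin of the fastest fibres, with 12401, 7128 and 13638 FPKM in GAS YE, against 14749, 13727 and 10454 FPKM in GAS YC. None of the 10 fast-fibre markers was at 0 in any of the 6 libraries.

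The 6 libraries differed in how much slow and oxidative muscle RNA they held, and this difference cut across the groups. Myh7, the myosin of slow fibres, was at 74.0, 12.1 and 6.75 FPKM in GAS YE, against 5.44, 0.635 and 113 FPKM in GAS YC. The slow ventricular light chain Myl3 was at 225, 241 and 142 FPKM in GAS YE, against 20.1, 9.42 and 464 FPKM in GAS YC. Myh2, the myosin of the fast oxidative fibres, was at 611, 996 and 485 FPKM in GAS YE, against 199, 134 and 914 FPKM in GAS YC. In each of these 3 genes YC 3 was far above YC 1 and YC 2 and within or above the range of the YE libraries.

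The summed level of the 8 slow-fibre markers was 974, 604 and 360.5 FPKM in YE 1, 2 and 4, against 107, 38.9 and 1824 FPKM in YC 1, 2 and 3. All 12 slow contractile genes of the list had a positive log2 fold change, with a median of 0.75, and none passed any test. Without YC 3 the median was 2.31. In that fit 5 of the 12 were higher in YE at an unadjusted p under 0.05. Among all genes 3.75% were higher and 4.76% lower. This omission was made for the lists after the high values of YC 3 were seen, and it raises YE/YC in such genes by itself. For Myh7 the log2 fold change was 0.83 with all libraries, 2.45 without YC 3 and -0.11 without YE 1. Over all genes the mean absolute difference on the normalized log2 scale was 0.146 between YE libraries, 0.149 between YC libraries and 0.147 between a YE and a YC library. YC 3 was closer to YE 1 and YE 2, at 0.128, than to YC 1 and YC 2, at 0.167. YE 4 was at 0.121 and 0.127 from YC 1 and YC 2, against 0.125 and 0.162 from YE 1 and YE 2. Its distance from YC 3 was 0.144. In bulk RNA, fewer or more fibres of a type and less or more RNA per fibre cannot be told apart.

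**Figure D1:**
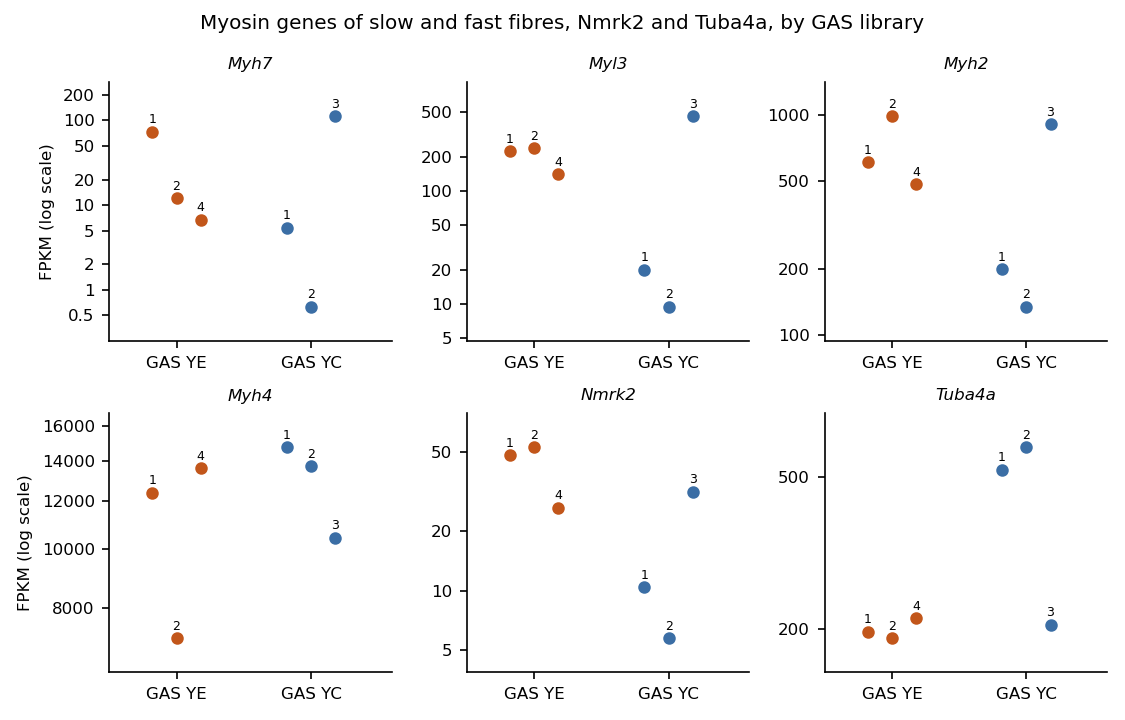
FPKM on a log axis of Myh7 (slow myosin), Myl3 (slow light chain), Myh2 (fast oxidative myosin), Myh4 (fastest myosin), Nmrk2 and Tuba4a in each GAS YE library (left) and GAS YC library (right), with the replicate number above each point. YC 3 stood apart from YC 1 and YC 2 in Myh7, Myl3, Myh2, Nmrk2 and Tuba4a and lay beside the YE libraries in Nmrk2 and Tuba4a.

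Few genes separated YE from YC once all genes were accounted for. With limma on the 12 GAS libraries, 3 genes passed an adjusted p of 0.05, which is 0.016% of those tested. Map2k6 rose (1 gene, 0.00532%), and Hba-a2 and Gm13242 fell (2 genes, 0.0106%). At an unadjusted p of 0.05 there were 830 genes (4.42% of those tested), 333 higher in YE (1.77%) and 497 lower (2.64%). The study's own thresholds are a fold change over 1.5 at an unadjusted p under 0.05. In this limma fit they gave 39 differentially expressed genes (DEGs, 0.208% of those tested), 21 upregulated (0.112%) and 18 downregulated (0.0958%). The study applied them to an independent test per gene, so its count is not matched here. With an equal-variance test of each gene these thresholds gave 22. Without quantile normalization the same thresholds gave 28 upregulated and 7 downregulated genes. Without YC 3 they gave 209 genes, 159 upregulated (0.846%) and 50 downregulated (0.266%), of which 31 were among the 39, and without YE 4 they gave 104.

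The 39 DEGs are unevenly supported. Of them, 29 had a mean of at least 1 FPKM over the 6 libraries, and 11 had YE and YC libraries that overlapped on the normalized log2 scale, on which overlap was judged for all genes. Over all genes, YE and YC did not overlap in 1431 (7.61%), with YE higher in 585 (3.11%) and lower in 846 (4.5%). The DEGs also included 7 genes of small RNAs at low values, 1 upregulated and 6 downregulated, in libraries made from poly-A RNA. The 10 upregulated and 9 downregulated DEGs at 1 FPKM or more whose groups did not overlap are described below by name. Ppp1r15a, a phosphatase subunit gene of the stress response named after its values were seen, was also downregulated and was counted as overlapping, although its FPKM values did not overlap, at 10.9, 9.03 and 13.3 FPKM in GAS YE, against 17.9, 19.3 and 13.5 FPKM in GAS YC.

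Map2k6 encodes MKK6, a kinase that phosphorylates and activates p38 MAP kinases. It lies on chromosome 11, at chr11:110399102-110525522 of GRCm38. It was at 17.4, 16.6 and 15.2 FPKM in GAS YE, against 9.39, 9.65 and 11.4 FPKM in GAS YC. Every YE library was above every YC library. The log2 fold change was 0.56 ± 0.05 (SE) with an adjusted p of 0.0154, which is under the 1.5-fold change that defines a DEG. In SOL YE/YC the log2 fold change of Map2k6 was 0.29 and in GAS OE/OC 0.12. The rise did not depend on YC 3, without which the log2 fold change was 0.60, but the adjusted p was 0.0611 without YC 1, 0.301 without quantile normalization, 0.272 in a fit of the 6 libraries alone, 0.619 in an equal-variance test of each gene and 0.0959 in a fit of all 24 libraries.

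Hba-a2, one of the pair of adult alpha-globin genes whose transcripts reach muscle in red blood cells, showed the greatest difference of all. It was at 0.153, 0.181 and 0.130 FPKM in GAS YE, against 89.1, 65.9 and 48.8 FPKM in GAS YC. The log2 fold change was -5.90 ± 0.45 with an adjusted p of 0.00348, against 0.146 in an equal-variance test of each gene and 0.207 in a fit of all 24 libraries. Its neighbour Hba-a1 was at 65.7, 39.4 and 155 FPKM in GAS YE, against 1.51, 56.8 and 0.772 FPKM in GAS YC, a log2 fold change of 3.42 with an unadjusted p of 0.0219. One of the pair was under 2 FPKM in 5 of the 6 libraries, and only YC 2 had both above that level.

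Hba-a1 (chr11:32283672-32284486) and Hba-a2 (chr11:32296492-32297310) are near-identical copies. Their coding sequences of 429 bases differed at 1 base, position 381 from the start of the coding sequence, an identity of 99.8%, and they encode the same protein. The stretch of coding bases 351 to 410, from the GRCm38 transcripts, is shown because it holds the only coding base that tells a fragment of one gene from a fragment of the other, in capitals.
Hba-a1: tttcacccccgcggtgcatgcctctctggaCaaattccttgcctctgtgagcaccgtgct
Hba-a2: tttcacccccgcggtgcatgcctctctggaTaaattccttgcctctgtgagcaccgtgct

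A fragment that lies within the coding sequence and does not span this base fits both genes equally. How such fragments were assigned is not given in the sources used here, the untranslated ends were not compared, and the part of read assignment in the values of Hba-a1 and Hba-a2 was not tested. The sum of both genes was 65.9, 39.5 and 154.9 FPKM in GAS YE, against 90.6, 122.7 and 49.6 FPKM in GAS YC. The groups overlapped (exact permutation test, two-sided, p = 0.9, n = 3 each). With 3 against 3 this test cannot give a p under 0.1, so it does not show that the sums were alike. Hba-a2 was under 1 FPKM in 9 of the 24 libraries of the series, namely all 3 of GAS YE, all 3 of GAS OE, 2 of SOL YC and 1 of SOL OE.

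Of the beta-globin genes, Hbb-b1 and Hbb-bs divided the libraries between them, but each was high in libraries of both groups. Hbb-b1 was at 72.5, 42.8 and 0.246 FPKM in GAS YE, against 0.239, 60.6 and 0.425 FPKM in GAS YC. Hbb-bs, named here after its values were seen, was at 0, 0 and 141.7 FPKM in GAS YE, against 75.6, 1e-06 and 49.1 FPKM in GAS YC. In all 24 libraries of the series at least one of Hbb-b1 and Hbb-bs was under 1 FPKM. The beta-globin genes are counted here as entries of the annotation. Whether each is a separate gene in these mice was not tested. The sum of 4 beta-globin genes was 102.7, 60.8 and 200.9 FPKM in GAS YE, against 110.5, 85.6 and 70.5 FPKM in GAS YC, and the groups overlapped (exact permutation test, two-sided, p = 0.7, n = 3 each, with the same smallest p of 0.1).

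**Figure D2:**
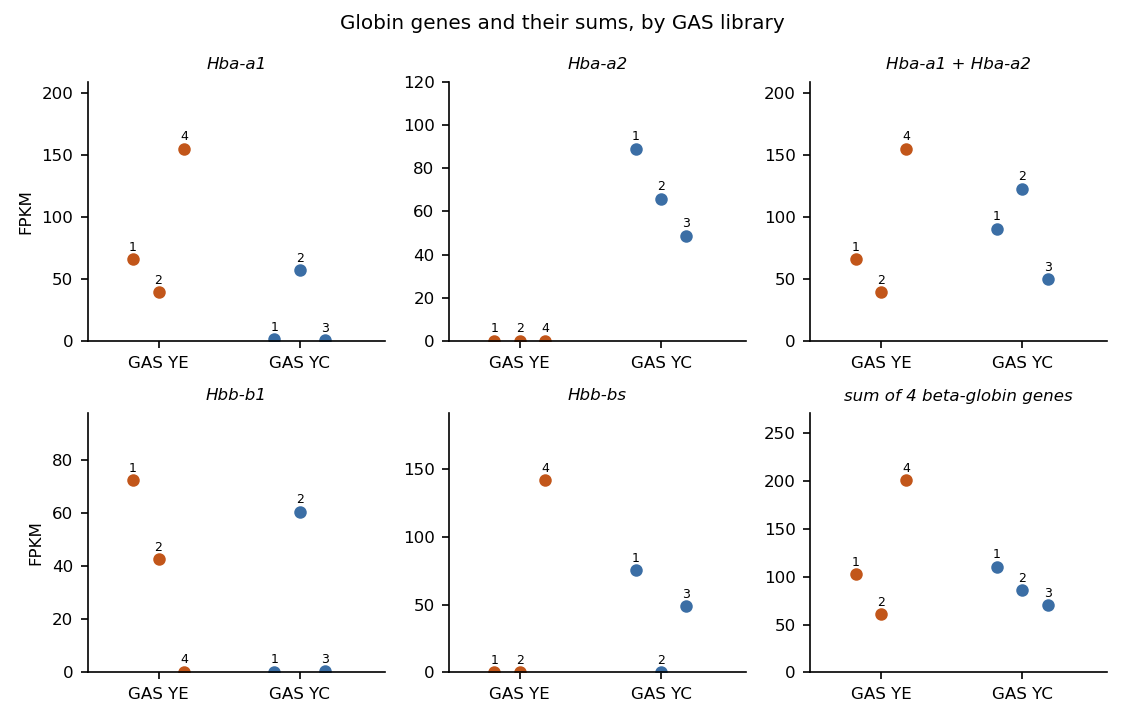
FPKM of Hba-a1, Hba-a2 and their sum (top) and of Hbb-b1, Hbb-bs and the sum of 4 beta-globin genes (bottom) in each GAS YE library (left) and GAS YC library (right), with the replicate number above each point. Hba-a2 was at 0.130–0.181 FPKM in YE and 48.8–89.1 FPKM in YC, while the alpha-globin and beta-globin sums of YE and YC overlapped.

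Gm13242, a gene on chromosome 4 (chr4:145670697-145704437), was at 0 FPKM in all 3 YE libraries, against 0.0261, 0.0223 and 0.0209 FPKM in YC. It passed the test with a log2 fold change of -0.06 (adjusted p = 0.00348). Its 3 YC values lay close together, and its level was near 0 in both groups. With at least 1 FPKM required in 3 of the libraries it was not tested, and the adjusted p was 0.272 in a fit of the 6 libraries alone and 0.619 in an equal-variance test of each gene.

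The 10 upregulated DEGs whose groups did not overlap include regulators of transcription, a cytokine receptor and enzymes of lipid metabolism. The adjusted p-values of these 10 ran from 0.409 for Zbtb16 to 1, so none passed the adjusted test. Zbtb16, which encodes the transcriptional repressor PLZF, was at 14.1, 16.8 and 12.6 FPKM in GAS YE, against 6.58, 8.75 and 8.31 FPKM in GAS YC. Brd3, a reader of acetylated histones, was at 5.42, 5.16 and 4.96 FPKM in GAS YE, against 2.60, 2.76 and 2.27 FPKM in GAS YC. For Brd3 the log2 fold change was 0.70 ± 0.16, and the 3 libraries of each group lay within a narrow range. All 10 passed the 1.5-fold threshold by selection, and all 10 were still over it without YC 3. In that fit the log2 fold change was 0.71 for Zbtb16 and 0.59 for Brd3, the lowest of the 10.

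Zfp503, a zinc-finger repressor of transcription, was at 4.28, 7.15 and 3.89 FPKM in GAS YE, against 2.42, 1.74 and 2.38 FPKM in GAS YC. Myod1, the master regulator of the muscle cell fate, was at 11.1, 17.8 and 10.9 FPKM in GAS YE, against 8.71, 5.58 and 8.61 FPKM in GAS YC. Cntfr, the receptor subunit that binds ciliary neurotrophic factor, was at 12.4, 13.1 and 11 FPKM in GAS YE, against 5.71, 6.11 and 9.35 FPKM in GAS YC. In Zfp503 and Myod1 YE 2 was the highest of the 6 libraries. In Cntfr YC 3 lay above YC 1 and YC 2, and the log2 fold change was 0.64 with all libraries and 0.79 without YC 3.

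Acly, the enzyme that makes acetyl-CoA for fatty acid synthesis, was at 11.3, 39.3 and 7.09 FPKM in GAS YE, against 5.37, 6.41 and 6.85 FPKM in GAS YC. The fold change of Acly rested on YE 2, since YE 4 was barely above YC 3. Fmo2, a flavin-containing monooxygenase, was at 7.72, 11.7 and 9.18 FPKM in GAS YE, against 4.03, 6.26 and 6.60 FPKM in GAS YC. Smpdl3b, a sphingomyelinase-like enzyme of the cell surface, was at 2.56, 2.12 and 2.76 FPKM in GAS YE, against 1.07, 0.910 and 1.67 FPKM in GAS YC. For Smpdl3b the log2 fold change was 0.59 ± 0.14 (unadjusted p = 0.00188). The RNA-binding protein gene Ybx2 and Cys1, which encodes a protein of the primary cilium, completed the group, with 3.94–5.63 FPKM in YE and 1.75–3.93 FPKM in YC for Ybx2 and 2.45–3.41 FPKM in YE and 0.996–1.83 FPKM in YC for Cys1. In Ybx2 the lowest YE and the highest YC library were nearly level.

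The 9 downregulated DEGs whose groups did not overlap comprised Hba-a2 and 8 others, among them a glycolytic activator, a cell cycle inhibitor, a mechanosensor and 2 clock genes. Pfkfb3 makes fructose 2,6-bisphosphate, the activator of the rate-limiting step of glycolysis. It was at 95.3, 38.9 and 54.1 FPKM in GAS YE, against 120.4, 144 and 106 FPKM in GAS YC, a log2 fold change of -1.12 ± 0.31 (unadjusted p = 0.00528, adjusted p = 0.954). Cdkn1a encodes p21, an inhibitor of cyclin-dependent kinases that also responds to stress and to loss of nerve supply in muscle. It was at 5.66, 7.15 and 7.63 FPKM in GAS YE, against 11.8, 28.0 and 8.73 FPKM in GAS YC. The YE libraries of Cdkn1a lay close together, while YC 2 was far above the other YC libraries.

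Piezo1, a cation channel opened by membrane stretch, was at 4.14, 3.40 and 3.83 FPKM in GAS YE, against 6.08, 7.54 and 4.70 FPKM in GAS YC. Prkcd, the kinase PKC-delta, was at 5.08, 4.20 and 4.40 FPKM in GAS YE, against 6.35, 11 and 5.15 FPKM in GAS YC. In Cdkn1a, Prkcd and Piezo1 alike YC 2 was the highest and YC 3 the lowest of the YC libraries. Col5a3, a chain of type V collagen, was at 3.64, 2.58 and 2.63 FPKM in GAS YE, against 5.74, 5.34 and 5.03 FPKM in GAS YC, a log2 fold change of -0.75 ± 0.16, and its 3 YC libraries lay close together. The other 3 of the 9, Ciart, Nr1d1 and Pik3r1, are given with the clock and with insulin signalling.

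**Figure D3:**
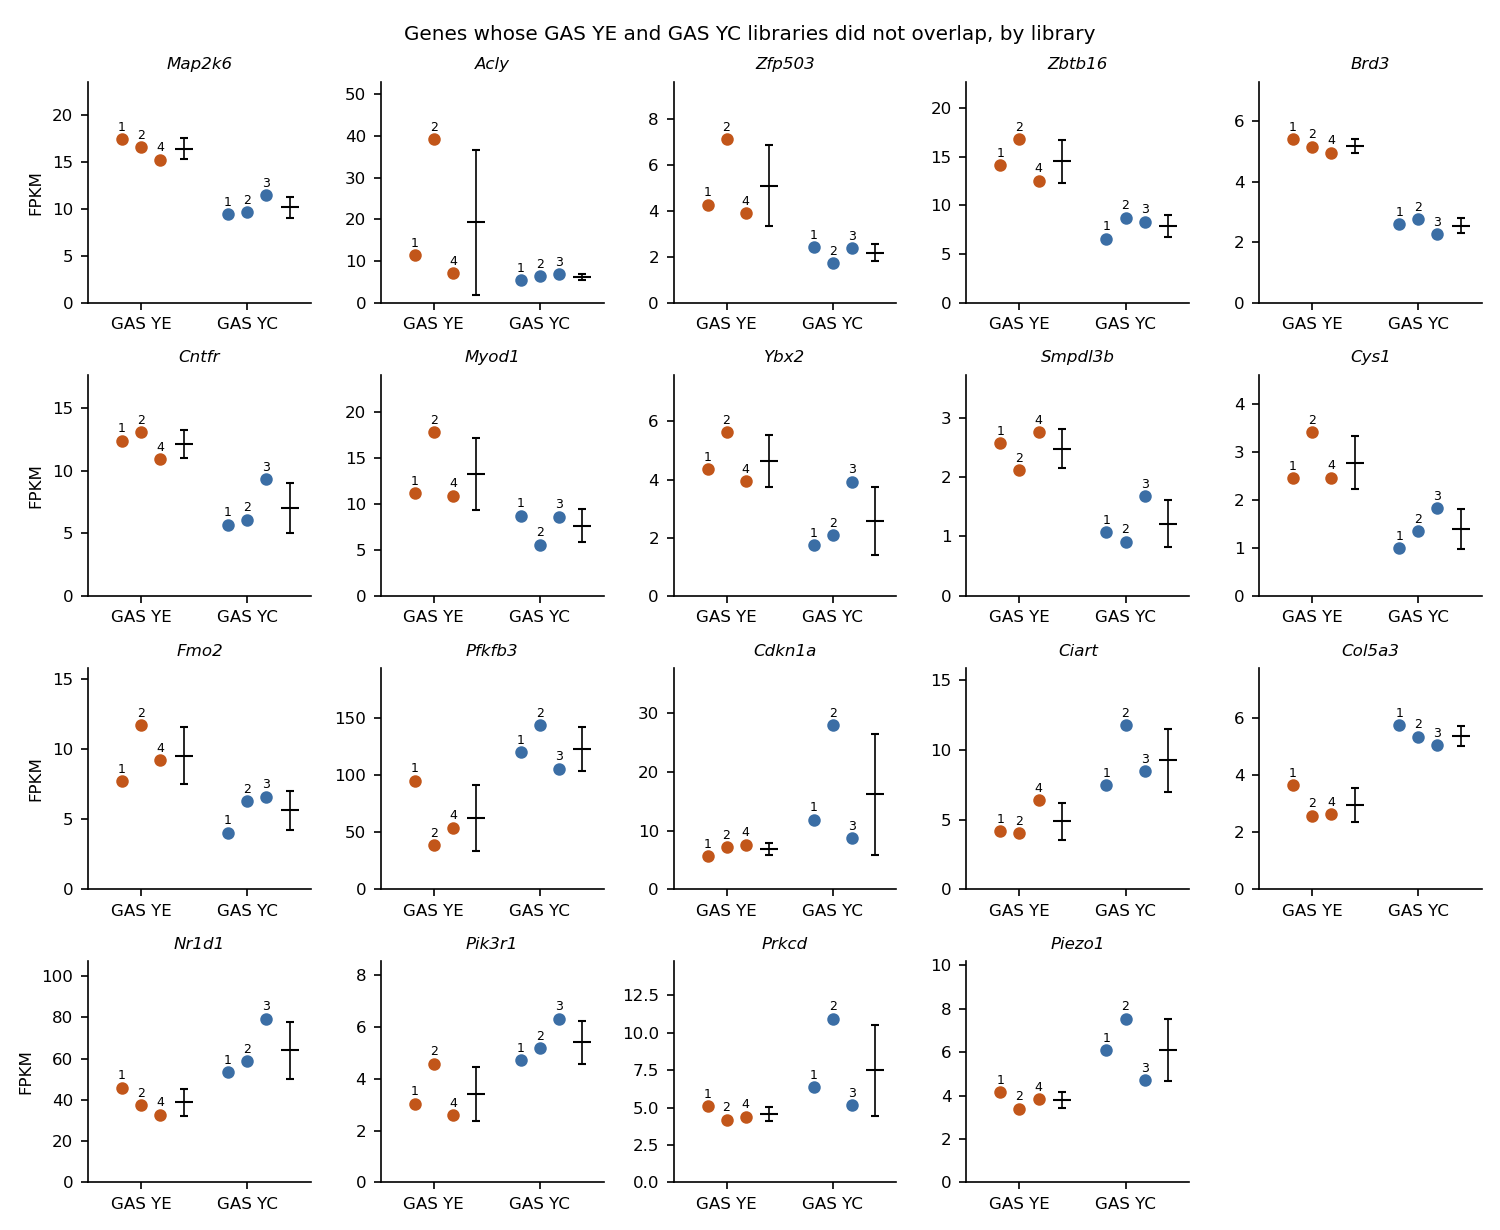
FPKM, on axes that start at 0, of Map2k6, the 10 upregulated DEGs and 8 of the 9 downregulated DEGs whose groups did not overlap, in each GAS YE library (left) and GAS YC library (right), with replicate numbers above the points and the mean with SD (n = 3) beside them. Map2k6 and Brd3 showed narrow groups, while Acly rested on YE 2 and Cdkn1a and Prkcd on YC 2.

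In a further pair of DEGs, named after their values were seen, YC 3 lay within the range of the YE libraries. Nmrk2, a kinase that feeds NAD+ synthesis from nicotinamide riboside in muscle, was at 48.2, 52.7 and 26.1 FPKM in GAS YE, against 10.4, 5.76 and 31.5 FPKM in GAS YC, a log2 fold change of 1.5 that was 2.06 without YC 3. Tuba4a, an alpha-tubulin, was at 197, 189 and 214 FPKM in GAS YE, against 522, 597 and 205 FPKM in GAS YC, a log2 fold change of -1.26 that was -1.87 without YC 3. Socs2, a suppressor of growth hormone signalling named for the same reason, was at 8.86, 5.95 and 3.83 FPKM in GAS YE, against 2.63, 1.6 and 4.41 FPKM in GAS YC, and YC 3 lay above YE 4.

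The circadian clock genes split into members that were lower and members that were higher in YE, with a median log2 fold change of 0.00 over the 19 genes of the list. None passed the adjusted test. At an unadjusted p of 0.05, 3 were lower and 1 higher in YE, against 2.64% and 1.77% of all genes. Nr1d1 encodes REV-ERB-alpha, the repressor of Arntl, and lies at chr11:98767932-98775377. It was at 46.0, 37.6 and 32.9 FPKM in GAS YE, against 53.5, 58.9 and 79.4 FPKM in GAS YC. Every YE library was below every YC library, with a log2 fold change of -0.75 ± 0.19 (unadjusted p = 0.00342, adjusted p = 0.934).

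Arntl encodes BMAL1, the activator of the loop, and was also lower in YE. It was at 2.17, 2.17 and 2.48 FPKM in GAS YE, against 3.48, 3.48 and 3.54 FPKM in GAS YC, a log2 fold change of -0.54 ± 0.14 (unadjusted p = 0.00424). Ciart, also known as Chrono, encodes a repressor of BMAL1 and CLOCK. It was at 4.18, 4.03 and 6.41 FPKM in GAS YE, against 7.49, 11.8 and 8.48 FPKM in GAS YC, a log2 fold change of -0.85 ± 0.24. Clock, the partner of BMAL1, was at 2.55–3.13 FPKM in YE and 3.15–3.64 FPKM in YC, with no overlap between the groups but an unadjusted p of 0.304.

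The repressor genes Per2 and Cry1 stood on the other side. Per2 was at 6.55, 7.67 and 5.55 FPKM in GAS YE, against 4.36, 4.46 and 4.79 FPKM in GAS YC, a log2 fold change of 0.37 ± 0.12 (unadjusted p = 0.0134). Cry1 was at 4.90–5.34 FPKM in YE and 4.07–4.43 FPKM in YC (unadjusted p = 0.182). Both were higher in every YE library than in any YC library, although Per2 alone had an unadjusted p under 0.05. Per3 had a log2 fold change of 0.21 and Per1 one of -0.65, with overlapping FPKM values in both. On the normalized log2 scale, 3 of the 19 clock genes were higher without overlap, beside 3.11% of all genes. On that scale 4 were lower without overlap, beside 4.5%. Of the others, Npas2, Nr1d2, Cry2, Dbp, Tef, Hlf, Nfil3, Bhlhe40, Bhlhe41 and Rora had log2 fold changes from -0.11 for Cry2 to 0.32 for Nfil3.

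The same members can be set beside SOL of the young mice and GAS of the old mice. In SOL YE/YC the log2 fold change was -1.37 for Nr1d1, -0.71 for Arntl, -0.80 for Ciart, -0.38 for Clock, 0.40 for Per2 and 0.36 for Cry1, each of the same sign as in GAS YE/YC. In GAS OE/OC it was -0.01 for Nr1d1, 0.40 for Arntl, -0.53 for Ciart, 0.17 for Clock, -0.10 for Per2 and 0.10 for Cry1. SOL and GAS libraries of a number are taken to come from the same mouse, so the young pair of muscles is not 2 independent sets of mice. None of the 19 differed between GAS YE/YC and either of the others at an adjusted p of 0.05.

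**Figure D4:**
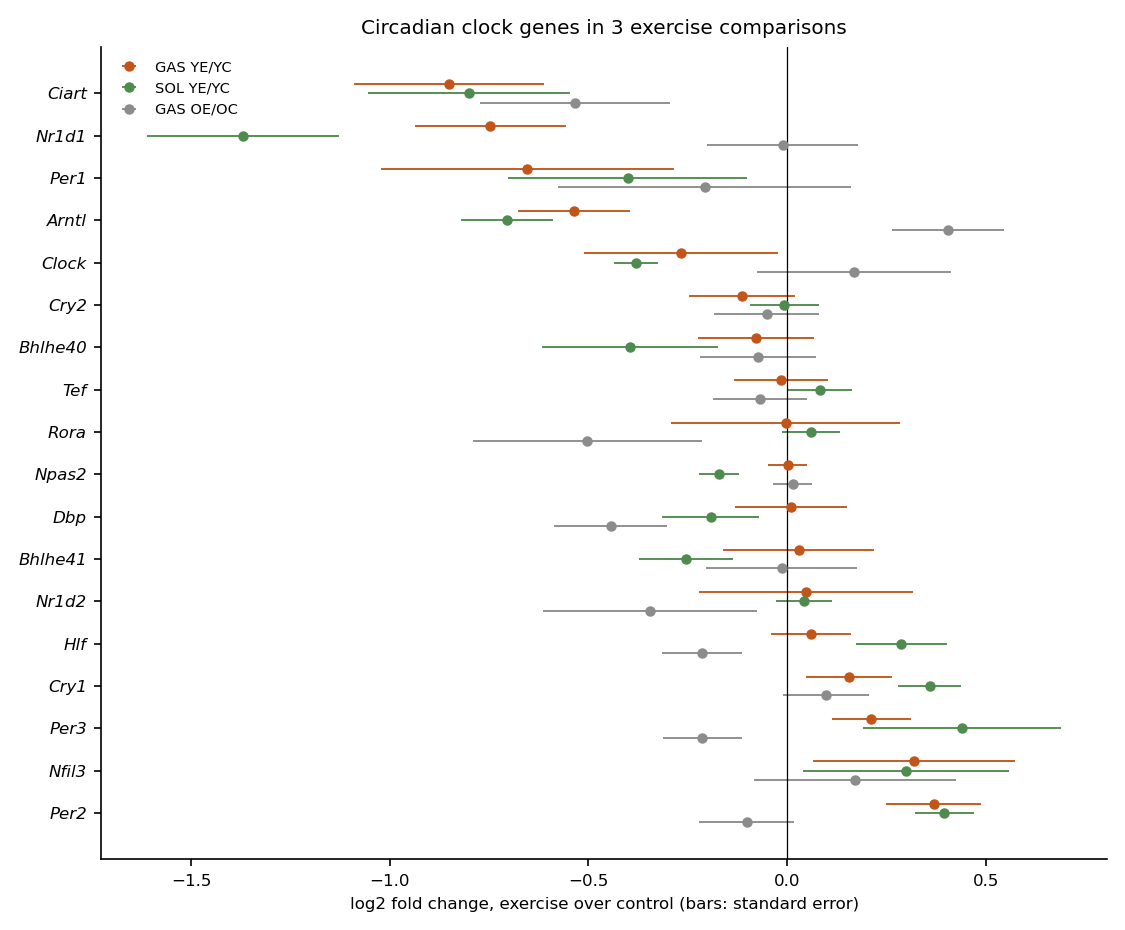
Log2 fold change (points) and its standard error (bars) of 18 of the 19 circadian clock genes in GAS YE/YC, SOL YE/YC and GAS OE/OC, ordered by GAS YE/YC. Ciart and Nr1d1 had the most negative values in GAS YE/YC (-0.85 and -0.75) and Per2 the most positive (0.37), and the old mice had a positive value for Arntl (0.40) where the young had negative ones.

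BMAL1 and CLOCK bind the E-box CACGTG, and the promoter of Ciart is shown because it held the most copies of it among the clock genes. The window spans the start of the gene on the minus strand (RefSeq, GRCm38.p6, chr3:95882179-95882478), with the E-boxes in capitals.
Ciart: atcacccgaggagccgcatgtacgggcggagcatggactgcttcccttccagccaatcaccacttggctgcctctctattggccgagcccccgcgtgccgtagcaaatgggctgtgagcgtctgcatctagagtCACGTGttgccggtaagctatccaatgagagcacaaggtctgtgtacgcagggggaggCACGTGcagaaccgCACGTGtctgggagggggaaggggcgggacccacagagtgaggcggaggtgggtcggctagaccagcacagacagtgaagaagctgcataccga

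The E-box, which reads the same on both strands, occurred 3 times in this window. Of the 19 clock genes 16 had a promoter in the table, some with more than 1 window, 21 windows in all. At least 1 E-box was in 6 of the 21 windows, which belong to 5 genes, against 7.15% of the 32851 windows of the same length in the table. The half-site AGGTCA, which REV-ERB and ROR receptors bind, was searched on both strands and occurred in 5 of the 21 windows, of 5 genes, against 16.3% of all windows. The window of Nr1d1 held neither. These matches describe letters in a window and are not binding sites.

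Insulin signalling had 1 gene at a lower and 1 at a higher level in YE at an unadjusted p of 0.05, of 26 in the list, beside 2.64% lower and 1.77% higher among all genes, and none passed the adjusted test. Pik3r1 encodes p85-alpha, the regulatory subunit of PI 3-kinase that docks on insulin receptor substrates, and lies at chr13:101680761-101768217. It was at 3.04, 4.58 and 2.60 FPKM in GAS YE, against 4.71, 5.17 and 6.32 FPKM in GAS YC. Every YE library was below every YC library, though YE 2 and YC 1 were nearly level, with a log2 fold change of -0.61 ± 0.13 (unadjusted p = 0.000989, adjusted p = 0.664). Without YE 2, the YE library nearest to YC, the adjusted p was 0.0317. This was the only 1 of 15 alternatives in which Pik3r1 passed, and leaving out YE 2 widens the difference by itself. Irs1, the docking protein itself, was at 7.27–11.1 FPKM in YE and 3.71–7.35 FPKM in YC, a log2 fold change of 0.48 (unadjusted p = 0.0315). Its groups overlapped in FPKM but not on the normalized log2 scale. The adaptors Grb10 and Grb14, which restrain the insulin receptor, had log2 fold changes of -0.28 and 0.57, and neither had an unadjusted p under 0.05.

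In SOL YE/YC the log2 fold change of Pik3r1 was 0.73, opposite in sign to the -0.61 of GAS YE/YC. The difference between the muscles was -1.33 on the log2 scale with an unadjusted p of 0.00246, and it did not pass the adjusted test. In GAS OE/OC the log2 fold change of Pik3r1 was 0.02.

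Genes of mitochondrial energy metabolism leaned to higher values in YE, by small amounts that did not pass the adjusted test. Of 79 genes of the respiratory chain and ATP synthase, 74 had a positive log2 fold change with a median of 0.12, beside 46.3% positive and a median of -0.01 among the 10352 genes at 1 FPKM or more. At an unadjusted p of 0.05, 4 of the 79 were higher and none lower, beside 1.77% higher and 2.64% lower among all genes. These genes were measured in the same 6 libraries and are not independent of each other. The mean normalized log2 level of the 79 was 8.25, 8.44 and 8.2 in YE, against 8.11, 8.06 and 8.34 in YC, and YC 3 was above YE 1 and YE 4. Without YC 3 the median was 0.20. In that fit 20 of the 79 were higher at an unadjusted p of 0.05. Among all genes 3.75% were higher and 4.76% lower. YC 3 was the control library with the highest level of these genes, so these values without it do not show higher levels in YE.

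By complex, the median was 0.11 over 37 genes of complex I, which oxidizes NADH, 0.16 over 13 of complexes II and III, 0.14 over 14 of complex IV, which reduces oxygen, and 0.11 over 15 of ATP synthase. Ndufab1, the acyl carrier subunit of complex I, was at 145, 178 and 142 FPKM in GAS YE, against 113, 107 and 153 FPKM in GAS YC (unadjusted p = 0.0389). Atp5g1, a subunit of the rotor ring of ATP synthase, was at 357, 503 and 351 FPKM in GAS YE, against 268, 271 and 385 FPKM in GAS YC (unadjusted p = 0.0390). In both genes YE 2 was the highest of the 6 libraries and YC 3 lay above at least one YE library. Ndufb5 of complex I and Uqcrh of complex III were the other 2 members, with log2 fold changes of 0.12 and 0.11. Cox7c, a subunit of complex IV, did not overlap between the groups, with 465–556 FPKM in YE and 363–456 FPKM in YC (unadjusted p = 0.0737).

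All 17 citric acid cycle genes had a positive log2 fold change, with a median of 0.10 and none at an unadjusted p of 0.05. Of 28 genes of fatty acid uptake and oxidation, 26 were positive with a median of 0.27, and none was at an unadjusted p of 0.05. Acadvl, which opens the oxidation of very long chain fatty acids, was at 143, 215 and 136 FPKM in GAS YE, against 87.6, 80.7 and 172 FPKM in GAS YC. The 3 YE libraries of Acadvl were above YC 1 and YC 2, and YC 3 was above YE 1 and YE 4. Echs1 and Hadh, later steps of the same spiral, had log2 fold changes of 0.43 and 0.40, and those without YC 3 were 0.64 and 0.64. Over the whole fatty acid list the median without YC 3 was 0.52. In that fit 16 of the 28 were higher at an unadjusted p of 0.05, beside 3.75% of all genes. The list summed to 2670, 3754 and 2334 FPKM in YE, against 1655, 1599 and 4000 FPKM in YC. Leaving out YC 3, the highest of the 6 libraries, thus raises YE/YC by itself.

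Ppargc1a encodes PGC-1alpha, the coactivator that drives mitochondrial biogenesis, and did not overlap between the groups. It was at 6.31, 6.47 and 5.41 FPKM in GAS YE, against 3.67, 4.36 and 5.19 FPKM in GAS YC, a log2 fold change of 0.31 ± 0.11 (unadjusted p = 0.0163, adjusted p = 1.00). YE 4 was barely above YC 3. The regulators of mitochondrial biogenesis were on both sides of 0, 9 of 15 positive with Ppargc1a included, and Ppara and Ppard, receptors for fatty acids, had log2 fold changes of 0.47 and -0.14. Among 28 genes of glycolysis and glycogen 20 were negative, with a median of -0.05, and Pfkfb3 was the one member at an unadjusted p of 0.05, where 2.64% of all genes were lower. Ldhb, the lactate dehydrogenase of oxidative fibres, was at 179, 326 and 123 FPKM in GAS YE, against 35.8, 18.4 and 324 FPKM in GAS YC and YC 3 was again far above YC 1 and YC 2. Hk2, the hexokinase of muscle, was at 95.2–118 FPKM in YE and 62.5–106 FPKM in YC.

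In GAS OE/OC 45 of the 79 respiratory genes were positive, with a median of 0.01. In SOL YE/YC 74 of the 79 were positive with a median of 0.09. For the slow contractile list the medians were -0.08 in SOL YE/YC and -0.28 in GAS OE/OC. Whether the amount of slow and oxidative muscle in each sample bears on the mitochondrial lists was not tested, and without YC 3 the medians of both kinds of list were further from 0.

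**Figure D5:**
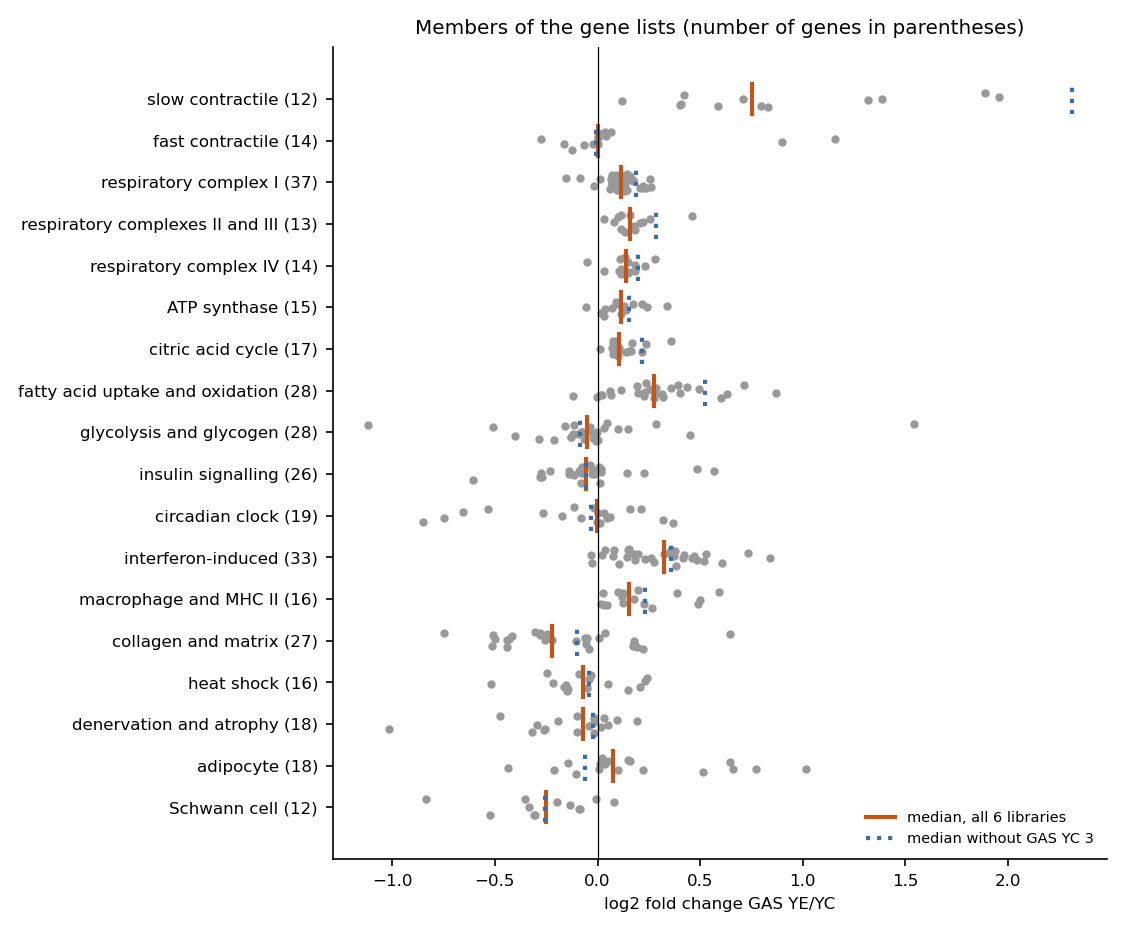
Log2 fold change GAS YE/YC (horizontal axis) of each member (grey points) of 18 gene lists, with the median over all 6 libraries (solid line) and without GAS YC 3 (dotted line). The slow contractile median was 0.75 with and 2.31 without YC 3, and the fatty acid median 0.27 and 0.52. The medians of the clock and insulin lists stayed near 0. The fast contractile median was near 0 too, but quantile normalization gives the top ranks of every library the same values. That median thus cannot show whether fast contractile RNA changed.

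Interferon-induced genes were at higher values in YE for 31 of 33 members, with a median log2 fold change of 0.32, and none passed the adjusted test. At an unadjusted p of 0.05, 3 were higher and none lower, beside 1.77% higher among all genes. Stat2, which carries the interferon signal to the nucleus, was at 3.93, 2.36 and 1.80 FPKM in GAS YE, against 1.40, 1.02 and 1.80 FPKM in GAS YC. Irf7, a transcription factor that amplifies the response, was at 2.81, 2.30 and 1.72 FPKM in GAS YE, against 1.16, 1.19 and 1.63 FPKM in GAS YC. Bst2 (tetherin), which holds virus particles at the cell surface, was at 16.9, 9.45 and 8.16 FPKM in GAS YE, against 5.67, 5.09 and 9.17 FPKM in GAS YC and is 1 of the 39 DEGs. YE 1 was the highest library in all 3 genes, and the mean normalized log2 level of the list was 2.24, 1.71 and 1.54 in YE, against 1.53, 1.37 and 1.68 in YC. On this measure YE 2 was just above the range of YC and YE 4 within it. The summed level was 280, 255 and 140.6 FPKM in YE, against 140.6, 130 and 179 FPKM in YC. By that sum YE 2 was well above every YC library. In GAS OE/OC 31 of the 33 were also positive, with a median of 0.14, and in SOL YE/YC 30 were, with a median of 0.21.

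All 16 macrophage and MHC II markers had positive log2 fold changes, with a median of 0.15, beside 43.1% positive among all genes. C1qa, C1qb and C1qc, the 3 chains of complement C1q that macrophages make, were the 3 members higher at an unadjusted p of 0.05, beside 1.77% of all genes. C1qb was at 17.8, 16.1 and 9.19 FPKM in GAS YE, against 6.65, 7.61 and 11.1 FPKM in GAS YC. The summed level of the markers was 269, 208 and 131.4 FPKM in YE, against 131.3, 154 and 199 FPKM in YC, so the groups overlapped, and no marker was at 0 in any of the 6 libraries. In SOL YE/YC none of the 16 was positive, with a median of -0.16. Of the 8 lymphocyte markers in the table, summed levels were under 1 FPKM in every library, and Cd3g and Cd8a, which mark T cells and were named after their values were seen, were at 0 in all 6.

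Collagen and matrix genes were lower in YE for 19 of 27 members, with a median of -0.22. At an unadjusted p of 0.05, 8 were lower and none higher, beside 2.64% lower among all genes, and none passed the adjusted test. Eln, which encodes elastin, was at 3.67, 5.27 and 4.19 FPKM in GAS YE, against 6.30, 5.71 and 7.09 FPKM in GAS YC (unadjusted p = 0.000550). Col4a2, a chain of the basement membrane collagen, was at 15.4, 11.1 and 11.5 FPKM in GAS YE, against 16.5, 17.4 and 19.4 FPKM in GAS YC (unadjusted p = 0.00187). In Eln and Col4a2, as in Col5a3, every YE library was below every YC library. Loxl2, which crosslinks collagen, was at 2.02–3.76 FPKM in YE and 3.15–4.33 FPKM in YC, with YE 1 inside the range of YC.

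The mean normalized log2 level of the list was 3.85, 3.42 and 3.33 in YE, against 3.61, 3.56 and 3.90 in YC, so YE 1 was close to YC 3, the highest. Without YC 3 the median was -0.10, and 5 were lower and 2 higher at an unadjusted p of 0.05, beside 4.76% and 3.75% of all genes in that fit. In SOL YE/YC 1 of the 27 was positive, with a median of -0.52, and in GAS OE/OC the median was 0.08. The fibroblast markers did not follow the matrix genes, with 8 of 8 positive and a median of 0.18, and Clec3b at 43.0–61.9 FPKM in YE and 27.6–49.3 FPKM in YC.

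Markers of 2 other tissues in the sample moved with single libraries. The 18 adipocyte markers summed to 496, 1308.5 and 473 FPKM in YE, against 545, 624 and 516 FPKM in YC, and YE 2 was the highest library. Fasn, which synthesizes fatty acids and belongs to this list, was at 12.6, 57.7 and 10.7 FPKM in GAS YE, against 7.42, 11.9 and 7.38 FPKM in GAS YC, with the same peak in YE 2 as Acly. None of the adipocyte markers had an unadjusted p under 0.05, and none was at 0. The part of adipocyte RNA in the value of Acly was not tested.

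Of 12 Schwann cell markers 11 had negative log2 fold changes, with a median of -0.25, and none had an unadjusted p under 0.05. Their summed level was 48.4, 118 and 43.1 FPKM in YE, against 81.0, 80.2 and 93.8 FPKM in YC. YE 1 and YE 4 were below and YE 2 above all YC libraries, so YE held both the lowest and the highest values. Tendon markers summed to 355, 229 and 231 FPKM in YE, against 189.7, 149 and 330.2 FPKM in YC. The 11 endothelial markers had a median of -0.04, the 8 markers of smooth muscle and pericytes 0.06 and the 6 satellite cell markers -0.09.

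Among the regulators of muscle mass and identity no gene passed the adjusted test. Mef2d, a transcription factor of muscle genes, was at 45.3, 45.8 and 46.9 FPKM in GAS YE, against 54.1, 60.1 and 50.6 FPKM in GAS YC, a log2 fold change of -0.30 ± 0.08 (unadjusted p = 0.00308), with no overlap between the groups. The 15 myogenic regulators had a median of -0.05, and Myod1 had the highest log2 fold change among them, 0.62. The 18 genes of denervation and atrophy had a median of -0.07, and 13 were negative. Besides Cdkn1a, Musk, the kinase that organizes the neuromuscular junction, had an unadjusted p of 0.0146. It was at 6.07–8.00 FPKM in YE and 7.74–8.50 FPKM in YC. Cdkn1a and Musk were the 2 of the 18 lower at an unadjusted p of 0.05, beside 2.64% of all genes. Fbxo32 (atrogin-1), the ubiquitin ligase of muscle wasting, was at 33.1–62.0 FPKM in YE and 53.4–71.0 FPKM in YC, a log2 fold change of -0.47 (unadjusted p = 0.0941).

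Hspa8, the constitutive heat shock chaperone, was lower in every YE library. It was at 478, 547 and 450.4 FPKM in GAS YE, against 574, 609 and 599.6 FPKM in GAS YC, a log2 fold change of -0.52 ± 0.12 (unadjusted p = 0.00186, adjusted p = 0.774). The median of the 16 heat shock genes was -0.07. Hspa8 was the only one at an unadjusted p of 0.05, where 2.64% of all genes were lower. Hsp90ab1 was at 456–477 FPKM in YE and 471–516 FPKM in YC (unadjusted p = 0.0867). The 18 immediate early genes, which are switched on within minutes of a stimulus, had a median of 0.03. Junb was at 2.04–2.50 FPKM in YE and 2.52–3.12 FPKM in YC. It alone had an unadjusted p of 0.05 or less, beside 2.64% of all genes lower. Of 15 glucocorticoid-induced genes none did, and the stress-responsive Fkbp5 was at 10.0–25.3 FPKM in YE and 12.7–45.6 FPKM in YC.

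Of the 15 antioxidant genes, 1 was higher and 1 lower at an unadjusted p of 0.05, beside 1.77% and 2.64% of all genes. Prdx3, the peroxiredoxin of mitochondria, had a log2 fold change of 0.20 (unadjusted p = 0.00750). Gclc, the first step of glutathione synthesis, had one of -0.24 (unadjusted p = 0.0473). Among the myokines, which muscle releases into the blood, Il15 was at 4.19, 6.02 and 2.37 FPKM in GAS YE, against 1.43, 1.43 and 3.67 FPKM in GAS YC and Fndc5, the precursor of irisin, at 30.8, 42.4 and 23.2 FPKM in GAS YE, against 10.6, 12.1 and 42.3 FPKM in GAS YC. In both myokine genes YC 3 lay above YC 1 and YC 2 and inside the range of YE. The 19 core genes of apoptosis had a median of -0.05 with none at an unadjusted p of 0.05. On the normalized log2 scale, 3 of the 19 were lower in YE without overlap, beside 4.5% of all genes. Bax, which opens the mitochondrial outer membrane, was among them. In FPKM it overlapped, at 8.78–12.0 FPKM in YE and 10.8–12.0 FPKM in YC. The 15 cell cycle genes had a median of 0.00, but only 2 had a mean of at least 1 FPKM. Below that level the pseudocount of 1 keeps log2 fold changes near 0, so this median does not show unchanged genes. At an unadjusted p of 0.05, 1 was higher and 1 lower, beside 1.77% and 2.64% of all genes. Pcna was at 12.6–15.9 FPKM in YE and 14.7–14.8 FPKM in YC.

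Whether the effect of training in young GAS differed from that in another muscle or at another age was tested directly. With limma on all 24 libraries, no gene differed between GAS YE/YC and SOL YE/YC at an adjusted p of 0.05, and 665 genes did at an unadjusted p of 0.05 (3.54% of those tested). With the mouse as a block 1 gene passed, and with single libraries left out the number passing the adjusted test ran from 0 to 5. With limma on the 12 GAS libraries, 1 gene (0.00532%) differed between GAS YE/YC and GAS OE/OC at an adjusted p of 0.05, and 815 did at an unadjusted p of 0.05 (4.34%). That gene, Ppp1r36, was near 0 FPKM in every library. No gene named above can therefore be called particular to young GAS, and a test that does not pass does not show that the effects were alike.

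Leaving out single libraries of YE or YC moved the count of genes at an adjusted p of 0.05. It was 6 without YC 1, 9 without YC 2 and 12 without YC 3, and 10 without YE 1, 15 without YE 2 and 8 without YE 4, against 3 with all. The DEGs numbered 209 without YC 3 and 104 without YE 4, against 39 with all, and 31 to 51 without any other single library of YE or YC.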

How the data were processed

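RNA of the gastrocnemius and soleus was sequenced from poly-A selected, stranded libraries, 3 per group and muscle. The authors used HISAT2 2.1.0 to align reads to mm10 (GRCm38), and StringTie 1.3.4d to quantify genes. The deposited table holds the FPKM that the authors obtained and log2 values, which the authors made as log2(FPKM + 1), quantile normalized over all 24 libraries. Repeating this gave values within 5e-09. The deposited fold changes and p-values of the authors' own comparisons were not used. Depth in reads is unknown. The limma p-values of YE against YC rest on the spread between 3 mice within each GAS group, old mice included. They also draw on the spread of other genes of like level. Samples were grouped by their titles.

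The comparison of YE and YC used limma 3.58.1 under R 4.3.3 (trend, two-sided, Benjamini-Hochberg over 18795 genes, 12 GAS libraries, no block) on the log2 values, whose pseudocount of 1 understates changes of low genes. In place of the study's independent test per gene, limma was used because it shares the spread over libraries, and that test was run as an alternative. A gene was said to have risen or fallen at an adjusted p under 0.05. Differences between effects were tested as interaction contrasts, and the code was tested on simulated data. Gene lists are described by counts and medians, not tested. The members and lists were chosen with earlier results of these data known.

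Named genes are Nr1d1 and Pik3r1, those past the adjusted test, DEGs of at least 1 FPKM without overlap (up to 15 each way), up to 4 members per list by smallest p at 1 FPKM or more, clock genes (1 is not reported here), 4 myosins and genes past an interaction test. The symbols of 25 genes, turned into dates in the table, were restored. Positions are from GRCm38.p6, and promoters from RefSeq.

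The alternatives were a pseudocount of 0.1, at least 1 FPKM in 3 libraries, no quantile normalization, the replicate number or the mouse as a block, the 6 libraries alone, the per-gene test and each replicate left out. Added after seeing the data were quantile normalization within GAS, all 24 libraries, omission of GAS OE 3, globin sums and list medians without YC 3.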

Additional observations from a re-analysis of the deposited data

Results flagged for a closer look

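Ppp1r36, a regulatory subunit gene of protein phosphatase 1, differed between GAS YE/YC and GAS OE/OC at an adjusted p under 0.05 in limma, by 0.08 on the log2 scale. It was at 0 FPKM in all YE, YC and OE libraries of GAS, against 0.05–0.0543 FPKM in GAS OC, so the difference lies in the old mice and at a level near 0. It stands here because the effect of training differed between the ages by a direct test. The adjusted p was 0.0530 without GAS YE 1, 0.0525 without GAS YC 1, 0.115 without GAS OE 2 and 0.0659 without GAS OC 5.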

How the results depend on the processing

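Against 3 genes at an adjusted p of 0.05 and 39 DEGs in GAS YE/YC, there were 4 genes and 221 DEGs with a pseudocount of 0.1, 22 DEGs with the equal-variance test of each gene and 71 DEGs in the fit of all 24 libraries. With single libraries left out there were 4 to 15 genes and 31 to 209 DEGs, the 209 without YC 3. Genes differing between GAS YE/YC and SOL YE/YC numbered 0 to 5 with a library left out and 1 with the mouse as a block, against 0. Genes differing between GAS YE/YC and GAS OE/OC numbered 0 to 9 with a library left out, 2 with a pseudocount of 0.1 and 0 with the filter at 1 FPKM, against 1. The replicate numbers shared by YE and YC do not pair the mice (the deviations of same-numbered libraries correlated at 0.125 and -0.170 over 10382 genes), and with the replicate block 0 genes passed in GAS YE/YC and 0 between GAS YE/YC and GAS OE/OC, with 41 DEGs, and the adjusted p was 0.896 for Map2k6, 0.228 for Hba-a2 and 0.575 for Gm13242, and 0.6 for the difference of Ppp1r36. Over 88 genes named in the text (all but Cd3g and Cd8a, at 0, and Ppp1r36), the log2 fold change kept its sign in all 15 alternatives except in genes near 0 or spread widely, none of which passed the adjusted test in any of them. These were Myh4, at -0.27 without quantile normalization and -0.028 to 0.12 with a library left out, Npas2 (-0.0026 with a pseudocount of 0.1, -0.048 to 0.042), Tef (0.038 without quantile normalization, -0.13 to 0.059), Rora (0.063 without quantile normalization, -0.17 to 0.22), Bhlhe40 (0.038 with the replicate block, -0.20 to 0.12), Nr1d2 (-0.067 with the replicate block), Cry2 (-0.26 to 0.0013), Dbp (-0.081 to 0.089), Hlf (-0.036 to 0.15), Bhlhe41 (-0.088 to 0.15) and Myh7 (-0.49 to 2.45). The causes were not tested. The number of mice and the unknown read depth limit what could be detected.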
